A study of Mus musculus with 12 samples.

Results

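The Hox cluster genes were followed through the series with every probe set of the array whose only annotated gene symbol is Hoxa, Hoxb, Hoxc or Hoxd followed by a number. The rule found 48 probe sets among the 45037 that are not array controls, and they belong to 33 genes: 16 probe sets of 9 Hoxa genes, 11 of 9 Hoxb genes, 11 of 7 Hoxc genes and 10 of 8 Hoxd genes. Another 3 probe sets, which pair a Hox gene with another gene, were left out. A single probe set stood for 22 genes, and 11 genes had several.

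The study used mouse embryonic stem cells differentiated as a monolayer in N2B27, a serum-free medium in which such cells turn into neural progenitors. The rtTA-Dmrt5 line carries a Dmrt5 transgene that doxycycline (Dox) is meant to switch on through the rtTA activator, and the rtTA line is its parent, with the activator alone. The 6 groups of 2 arrays were rtTA-Dmrt5 day 9 +Dox, rtTA-Dmrt5 day 9 -Dox, rtTA-Dmrt5 day 7 +Dox, rtTA-Dmrt5 day 7 -Dox, rtTA day 7 +Dox and rtTA day 7 -Dox, with Dox given from day 5 of differentiation in the +Dox groups. All groups carry rtTA, and each line is a single line. The rtTA line was measured at day 7 only, so no array shows what Dox does at day 9 without the transgene. Nothing in the labels says that replicates came from separate cultures, so a p-value measures only the spread between arrays, which may be technical.

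Hox genes encode homeodomain transcription factors that give cells along the head-to-tail axis their regional identity. In mammals they lie in the Hoxa, Hoxb, Hoxc and Hoxd clusters, and genes of low paralogue number are expressed earlier and farther toward the hindbrain than those of high number, which mark the trunk and tail end of the spinal cord. The forebrain expresses none of them, retinoic acid and Fgf signals switch them on in the neural tube, and Polycomb complexes keep them silent elsewhere.

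The promoters of 4 genes with large changes are printed here, since the comparisons turn on them: Hoxb1 and Hoxa2 pattern the hindbrain, and Hoxd9 and Hoxd10 pattern the posterior spinal cord and the limbs. Each runs from 250 bases before to 50 bases after a start site listed for the gene on GRCm38.p6, on the gene's own strand: Hoxb1 at chr11:96365508-96365807 (plus strand), Hoxa2 at chr6:52164782-52165081 (minus strand), Hoxd9 at chr2:74697513-74697812 (plus strand) and Hoxd10 at chr2:74691641-74691940 (plus strand). For Hoxb1 and Hoxd10 that site lies inside the RefSeq gene, which begins at 96365746 and 74684273 on the same chromosomes. Capitals mark TGATNNAT, a core that Hox proteins bind with their Pbx partners, in Hoxb1 and Hoxa2, and the retinoic acid receptor half-site AGGTCA in Hoxd10, each searched on both strands.
Hoxb1: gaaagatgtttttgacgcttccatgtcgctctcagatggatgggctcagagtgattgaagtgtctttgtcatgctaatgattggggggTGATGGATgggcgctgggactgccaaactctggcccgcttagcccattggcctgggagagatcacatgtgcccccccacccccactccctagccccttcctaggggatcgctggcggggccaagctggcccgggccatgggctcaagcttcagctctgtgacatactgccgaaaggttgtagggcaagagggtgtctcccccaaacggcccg
Hoxa2: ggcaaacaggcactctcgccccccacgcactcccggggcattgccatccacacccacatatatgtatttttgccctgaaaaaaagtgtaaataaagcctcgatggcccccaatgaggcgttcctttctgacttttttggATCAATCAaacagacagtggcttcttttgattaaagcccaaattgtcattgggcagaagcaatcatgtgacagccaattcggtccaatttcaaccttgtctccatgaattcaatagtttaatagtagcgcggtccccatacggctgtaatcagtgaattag
Hoxd9: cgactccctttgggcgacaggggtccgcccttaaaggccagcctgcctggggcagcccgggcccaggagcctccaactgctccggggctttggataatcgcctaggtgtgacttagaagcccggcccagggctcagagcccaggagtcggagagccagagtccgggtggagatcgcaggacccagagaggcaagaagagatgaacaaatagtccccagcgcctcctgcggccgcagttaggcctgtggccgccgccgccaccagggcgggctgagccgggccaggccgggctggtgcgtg
Hoxd10: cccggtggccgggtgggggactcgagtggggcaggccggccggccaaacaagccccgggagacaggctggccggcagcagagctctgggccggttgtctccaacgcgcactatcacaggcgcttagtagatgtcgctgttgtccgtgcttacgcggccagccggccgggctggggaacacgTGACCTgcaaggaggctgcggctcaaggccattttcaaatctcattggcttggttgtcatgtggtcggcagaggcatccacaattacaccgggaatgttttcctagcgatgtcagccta
The table held 21 promoters of 19 of the 33 genes. TGATNNAT was in 3 of these 21 (Hoxa2, Hoxb1 and Hoxd11), or 14.3%, and in 8.85% of all 32851 promoters of the same length. AGGTCA was in 6 of the 21 (28.6%; Hoxa5, Hoxb4, Hoxc4, Hoxd3, Hoxd8 and Hoxd10) and in 16.3% of all. The core ACANTGT, as bound by Dmrt proteins, was in the Hoxd11 promoter alone among the 21 (4.76%) and in 7.54% of all. TTTATG, bound by Cdx proteins, was in 3 of the 21 (14.3%; Hoxa7, Hoxd3 and Hoxd11) and in 11.9% of all. Overlap between matches of different motifs was not counted. Hox promoters held a median of 15 CG pairs, against 7 over all promoters.

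The deposited values are RMA values (robust multi-array average, a log2 scale) with each probe set's median over the 12 arrays taken off, so a value above 0 is above that probe set's own median and levels of different genes are not comparable. The spacing of the deposited numbers still gave the range of each median: 0 of the 48 Hox probe sets had a median of at least 8, against 19.9% of all probe sets, 15 lay at 4 to 8 (40.2% of all), 31 at 2 to 4 (34.9%) and 2 under 2 (5.0%). Dmrta2, the current name of Dmrt5, went against the labels: it stood at -1.07 and -1.92 in the rtTA-Dmrt5 arrays labelled +Dox at day 9, against 1.07 and 1.16 in those labelled -Dox (-2.61 ± 0.33, SE; limma adjusted p = 0.000823). At day 7 the difference was -2.42 ± 0.33 (adjusted p = 0.00318), and in the rtTA line 0.10 ± 0.33 (adjusted p = 0.989). Between the lines at day 7 the difference, rtTA-Dmrt5 minus rtTA, was -0.61 ± 0.33 with the +Dox label (adjusted p = 0.287) and 1.92 ± 0.33 with the -Dox label (adjusted p = 0.00323). No label or header says whether this probe set reads the transgene, and the groups are called by their labels throughout. Neural progenitor markers were present, with Sox1, Sox2, Sox3, Nes and Pax6 each having a probe set with a median of at least 8. A change in a bulk sample cannot tell fewer cells of a type from less RNA per cell.

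**Figure D1:**
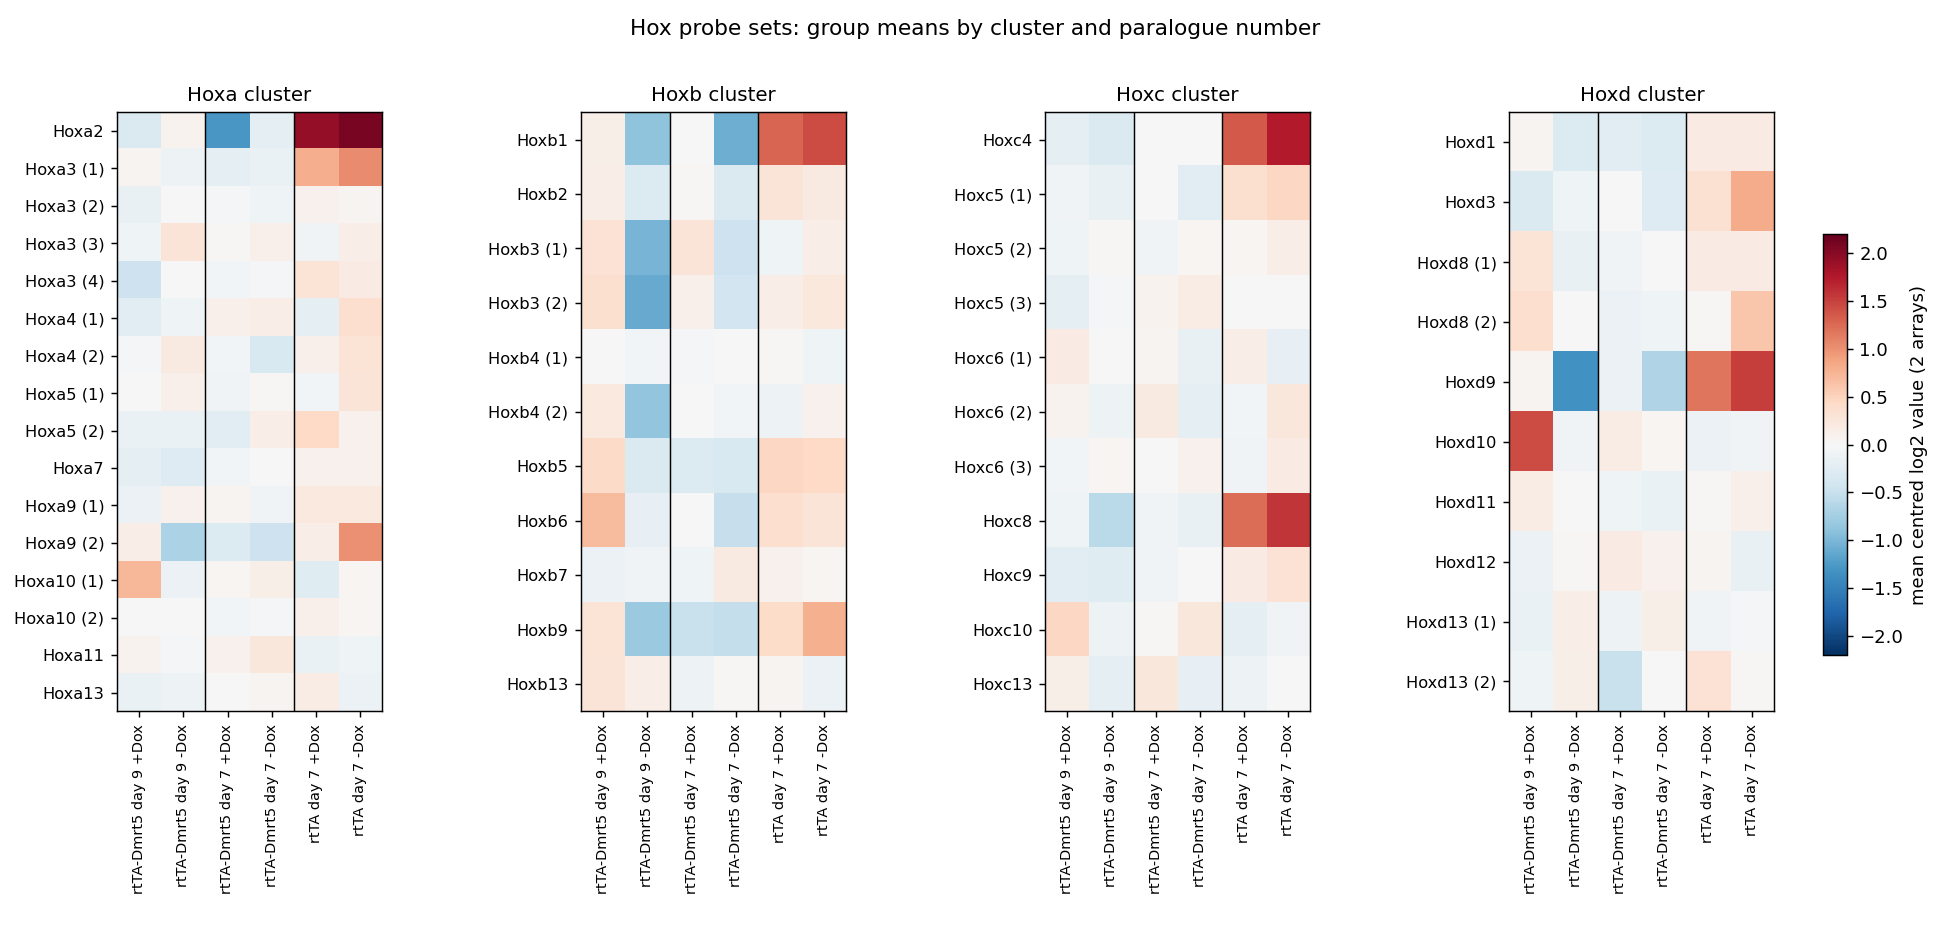
Mean centred log2 value of 2 arrays (colour) for each of the 48 Hox probe sets (rows, by cluster and paralogue number) in the 6 groups (columns, as labelled). Genes with several probe sets are numbered in the order of their IDs, so that Hoxb3 (1) is 1427605_at, Hoxb3 (2) 1456229_at and Hoxb4 (2) 1460379_at. The rtTA columns are red for Hoxa2, Hoxb1, Hoxc4, Hoxc8 and Hoxd9, and Hoxd10 is deep red in rtTA-Dmrt5 day 9 +Dox alone.

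The first question was whether Hox genes responded to Dox in rtTA-Dmrt5 cells. At day 9, 9 of the 48 Hox probe sets, of 8 genes, were higher in the arrays labelled +Dox and 0 were lower. That is 18.8%, against 18.3% of all probe sets called in either direction and 10.3% called higher, so the share called in either direction was near the background. Hoxb genes made up 6 of the 9: Hoxb1, both probe sets of Hoxb3, Hoxb4, Hoxb6 and Hoxb9. The others were Hoxd9, Hoxd10 and Hoxa10, and the 11 Hoxc probe sets gave no call, their smallest adjusted p being 0.185 (Hoxc10). The median difference was 0.88 over the 11 Hoxb probe sets, 0.27 over the 10 Hoxd, 0.13 over the 11 Hoxc and -0.08 over the 16 Hoxa, against 0.13 over all 48 and -0.02 over all probe sets. By paralogue number, 4 of 16 probe sets of paralogues 1 to 4 rose, 1 of 15 of paralogues 5 to 8 and 4 of 17 of paralogues 9 to 13.

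Among the Hoxb genes, Hoxb1, which gives identity to one hindbrain segment, stood at 0.40 and -0.16 in the day 9 arrays labelled +Dox, against -0.57 and -1.21 in those labelled -Dox (1.01 ± 0.25; adjusted p = 0.0215). Hoxb3, a gene of the caudal hindbrain, had values of 0.24 and 0.48 in arrays labelled +Dox for probe set 1456229_at, against -1.31 and -0.91 in those labelled -Dox (1.46 ± 0.24; adjusted p = 0.00301). Its other probe set, 1427605_at, stood at 0.031 and 0.60 in arrays labelled +Dox, against -1.03 and -1.005 in those labelled -Dox (1.33 ± 0.26; adjusted p = 0.0065). Both probe sets of Hoxb3 thus rose, and in neither did the groups overlap. With 2 arrays a group, such separation also occurs without a call, as for Hoxa2 in rtTA cells (limma adjusted p = 0.962). It therefore adds no support to a call, here or below. Hoxb4, expressed from the hindbrain's caudal end into the spinal cord, had 0.18 and 0.25 in arrays labelled +Dox for 1460379_at, against -0.52 and -1.22 in those labelled -Dox (1.08 ± 0.21; adjusted p = 0.00683). Its second probe set, 1451761_at, differed by 0.06 ± 0.15 (adjusted p = 0.835), so the Hoxb4 probe sets did not give the same call; the responding one has a median of 4 to 8 and the other of 2 to 4.

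The trunk-level Hoxb genes that rose were Hoxb6 and Hoxb9, both expressed in the thoracic part of the body axis. Hoxb6 stood at 0.86 and 0.54 in the day 9 arrays labelled +Dox, against -0.18 and -0.17 in those labelled -Dox (0.88 ± 0.23; adjusted p = 0.0286). Hoxb9 stood at 0.25 and 0.35 in arrays labelled +Dox, against -1.07 and -0.57 in those labelled -Dox (1.12 ± 0.23; adjusted p = 0.00889). Neither gene's groups overlapped. Other Hoxb genes did not pass: Hoxb2 differed by 0.43 (adjusted p = 0.118), Hoxb5 by 0.74 (adjusted p = 0.0858) and Hoxb7 by -0.05 (adjusted p = 0.89). The last gene of the cluster, Hoxb13, differed by 0.14 (adjusted p = 0.525).

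Outside the Hoxb cluster, Hoxd10, whose probe set has a median of 2 to 4, had the largest rise. It stood at 1.53 and 1.33 in the day 9 arrays labelled +Dox, against -0.0093 and -0.14 in those labelled -Dox (1.51 ± 0.12; adjusted p = 9.27e-05), and the other 8 arrays lay between -0.18 and 0.22. Its neighbour Hoxd9 stood at 0.12 and 0.0067 in arrays labelled +Dox, against -1.37 and -1.28 in those labelled -Dox (1.39 ± 0.15; adjusted p = 0.000406). The adjacent genes thus differed in pattern: Hoxd10 was above its median in the arrays labelled +Dox, while Hoxd9 was below its median in those labelled -Dox. Hoxa10, which with Hoxd10 patterns the lumbar spinal cord, had 0.61 and 0.86 in arrays labelled +Dox for 1431475_a_at, against -0.093 and -0.18 in those labelled -Dox (0.87 ± 0.15; adjusted p = 0.00337). That probe set has a median of 2 to 4. The other Hoxa10 probe set, 1446408_at, whose median is under 2, differed by -0.02 (adjusted p = 0.941). The 39 Hox probe sets that were not called ranged from -0.47 (Hoxa3, 1452421_at) to 0.83 (Hoxa9, 1455626_at), and 35 of them lay within 0.5 of 0.

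**Figure D2:**
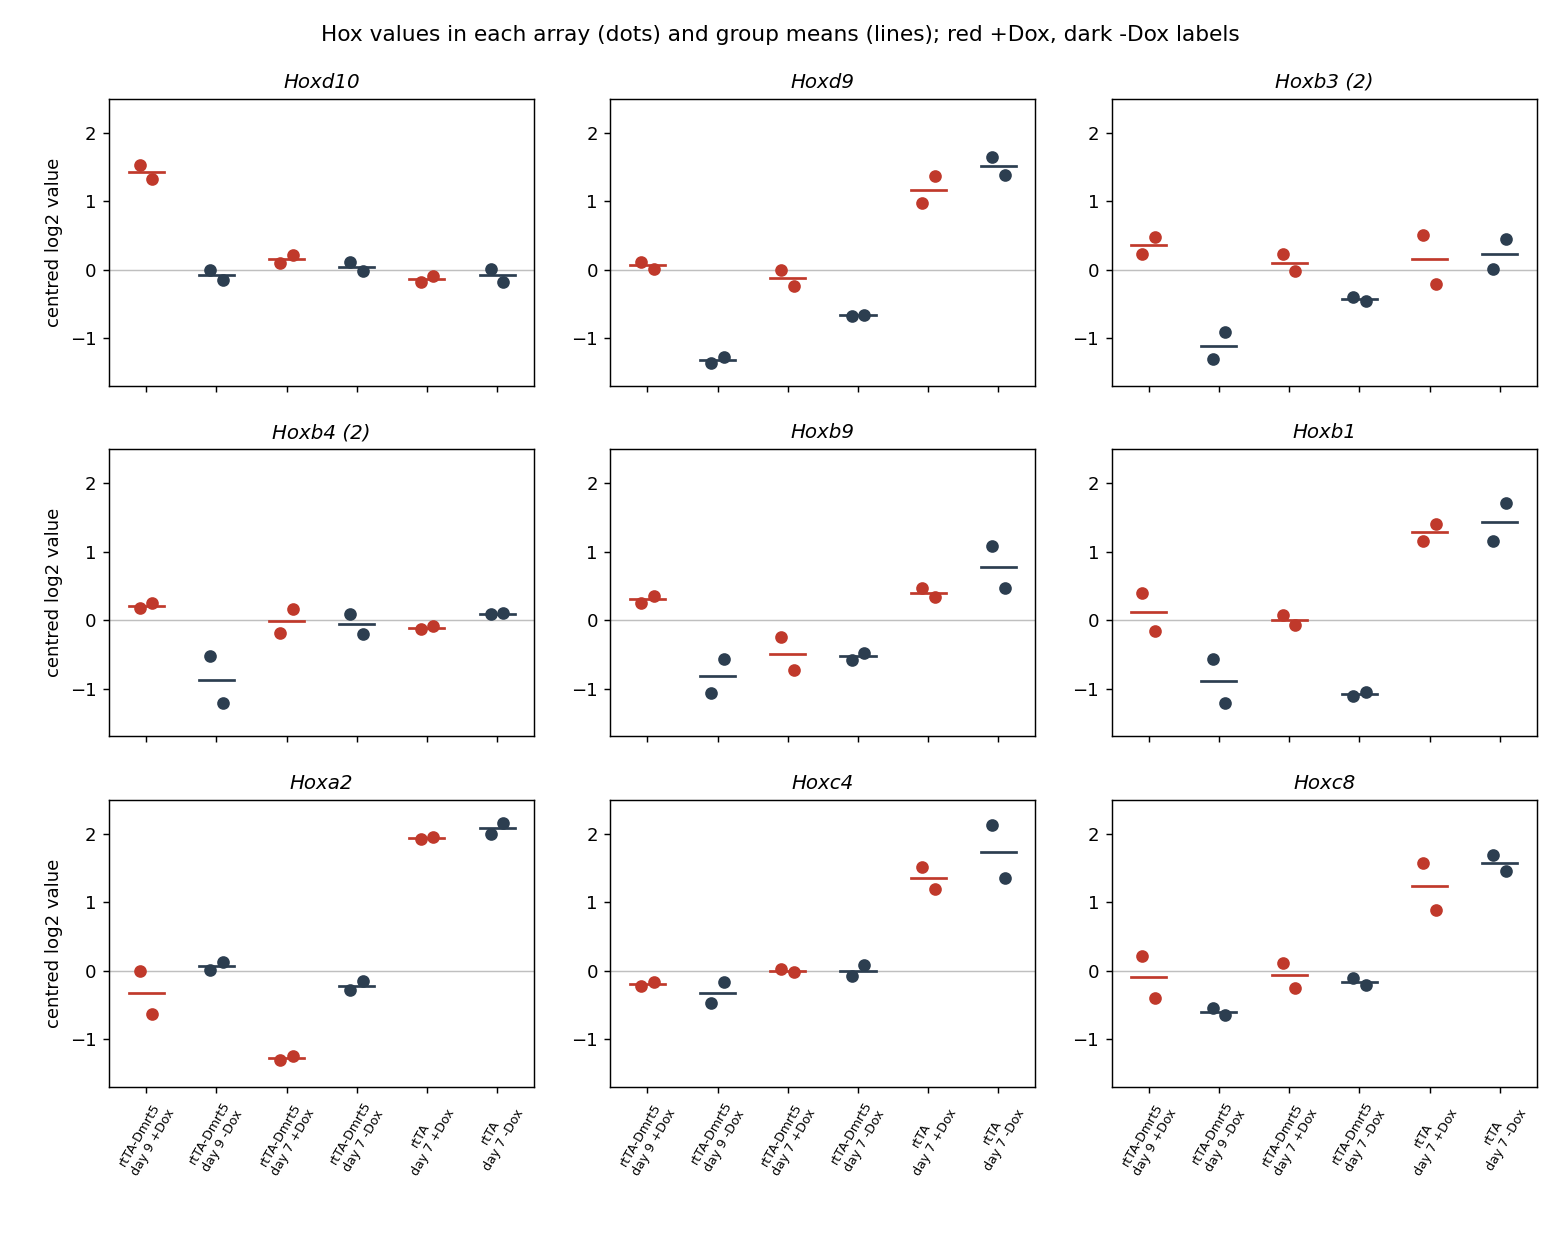
Centred log2 value of each array (dots) with the group mean (lines) for Hoxd10, Hoxd9, Hoxb3 (1456229_at), Hoxb4 (1460379_at), Hoxb9, Hoxb1, Hoxa2, Hoxc4 and Hoxc8, red for arrays labelled +Dox and dark for those labelled -Dox. Hoxd10 reaches 1.53 and 1.33 in rtTA-Dmrt5 day 9 +Dox arrays and stays between -0.18 and 0.22 elsewhere, while Hoxa2 is lowest, at -1.31 and -1.25, in rtTA-Dmrt5 day 7 +Dox arrays.

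Leaving out single arrays bore on 3 of these calls. Hoxb1 was not called without replicate 1 of the arrays labelled +Dox (0.73, adjusted p = 0.145) or replicate 2 of those labelled -Dox (0.69, adjusted p = 0.133). Hoxb6 was not called without replicate 1 of +Dox (0.71, adjusted p = 0.16) or either replicate of -Dox (adjusted p = 0.113 and 0.0942), and Hoxb9 not without replicate 1 of -Dox (0.87, adjusted p = 0.0713). Hoxb1 was also not called with only the groups compared (adjusted p = 0.0781), nor Hoxb6 with array weights (adjusted p = 0.0607). Lower calls appeared for Hoxa2 without replicate 1 of +Dox (-0.71, adjusted p = 0.0124) and for Hoxa3 1452421_at with the replicate block within line and day (-0.47, adjusted p = 0.0438). Without replicate 2 of +Dox, Hoxb2, Hoxb5 and Hoxc10 were also called higher (adjusted p = 0.0451, 0.0152 and 0.00708). Other measures moved with the Dox label at day 9, when 18.3% of all probe sets were called. Of 16 endoderm marker probe sets, 9 rose and 0 fell, and their mean per array was 0.99 and 0.67 with the +Dox label, against 0.088 and 0.14 with the -Dox label. Of 11 forebrain probe sets, 0 rose and 6 fell, with means of -0.53 and -0.57 with the +Dox label, against 0.94 and 0.74 with the -Dox label. Of 8 mesoderm probe sets, 1 rose (Meox1, 1.99) and 2 fell (both of Lhx1). Of 13 neural progenitor probe sets, 3 of Nes rose and 3 of Pax6 fell, and of 8 for spinal cord and neurons 2 rose (Nkx6-1 and Olig2) and 3 fell. Of 9 for the midbrain and hindbrain boundary, Wnt1 rose by 2.40, while En2 (-1.77) and Gbx2 (-1.04) fell. The mean of 18 spike-in probe sets, which report on labelling and hybridisation, was -0.79 and -0.66 in the arrays labelled +Dox, against 0.010 and 0.17 in those labelled -Dox. For Actb, the 3' probe set minus the 5' one, which reflects RNA quality, gave 0.23 and 0.20 with the +Dox label, against 0.0046 and -0.053 with the -Dox label. The part of these in the Hox differences was not tested.

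At day 7, after less time with Dox, 1 of the 48 Hox probe sets was called, which is 2.08%, against 3.05% of all probe sets and 1.79% called lower. Hoxa2, which patterns the anterior hindbrain and the second pharyngeal arch, was lower: it stood at -1.31 and -1.25 in the day 7 arrays labelled +Dox, against -0.29 and -0.15 in those labelled -Dox (-1.06 ± 0.18; adjusted p = 0.0102). The groups did not overlap, but the call was lost without any 1 of these 4 arrays (adjusted p from 0.0522 to 0.0956). Hoxb1 differed in the other direction and did not pass in the full fit, with 0.070 and -0.070 in arrays labelled +Dox, against -1.11 and -1.06 in those labelled -Dox (1.08 ± 0.25; adjusted p = 0.0525). It passed with the replicate block within line and day (adjusted p = 0.00976), with one value per gene (0.0321), with a median level of at least 4 (0.0375), with array weights (0.0155), with only the groups compared (0.0208) and in 6 of the 12 fits without 1 array. The next smallest p-values were those of Hoxd9 (0.55; adjusted p = 0.0986), Hoxb3 1427605_at (0.74; adjusted p = 0.191) and Hoxd13 1440626_at (-0.48; adjusted p = 0.249), a gene of the digits and the tail end of the axis. The median over all 48 was -0.01, against 0.01 over all probe sets. Beside these, 3 of 16 endoderm probe sets rose at day 7, and of 11 forebrain probe sets 1 rose and 5 fell. Of 8 spinal cord and neuron probe sets 4 fell, with means per array of -0.55 and -0.65 with the +Dox label, against 0.051 and -0.036 with the -Dox label, and of 13 neural progenitor probe sets 4 fell. The spike-in means were -0.34 and -0.017 with the +Dox label, against 0.098 and 0.19 with the -Dox label. The part of these was not tested.

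Whether the Dox response differed between the days was tested directly. Of the 48 probe sets 1 was called, 2.08% against 0.639% of all probe sets and 0.324% called higher: Hoxd10 responded by 1.39 ± 0.17 more at day 9 than at day 7 (adjusted p = 0.0157), where it had stood at 0.10 and 0.22 in arrays labelled +Dox, against 0.11 and -0.020 in those labelled -Dox. The call was lost in 7 of the 12 fits that left out 1 array (adjusted p up to 0.0831), and when same-numbered arrays of a line and day were paired by a replicate block (adjusted p = 0.0708). Hoxa10 1431475_a_at differed by 0.95 (adjusted p = 0.0795, and 0.0411 with one value per gene), Hoxd9 by 0.84 (adjusted p = 0.122), Hoxb4 1460379_at by 1.03 (adjusted p = 0.154) and Hoxb9 by 1.09 (adjusted p = 0.168). For Hoxb1 the responses were 1.01 at day 9 and 1.08 at day 7. A rise called at day 9 and not at day 7 was therefore not shown to differ between the days for the other Hox genes, and for Hoxd10 and Hoxa10 the call depended on the fit.

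**Figure D3:**
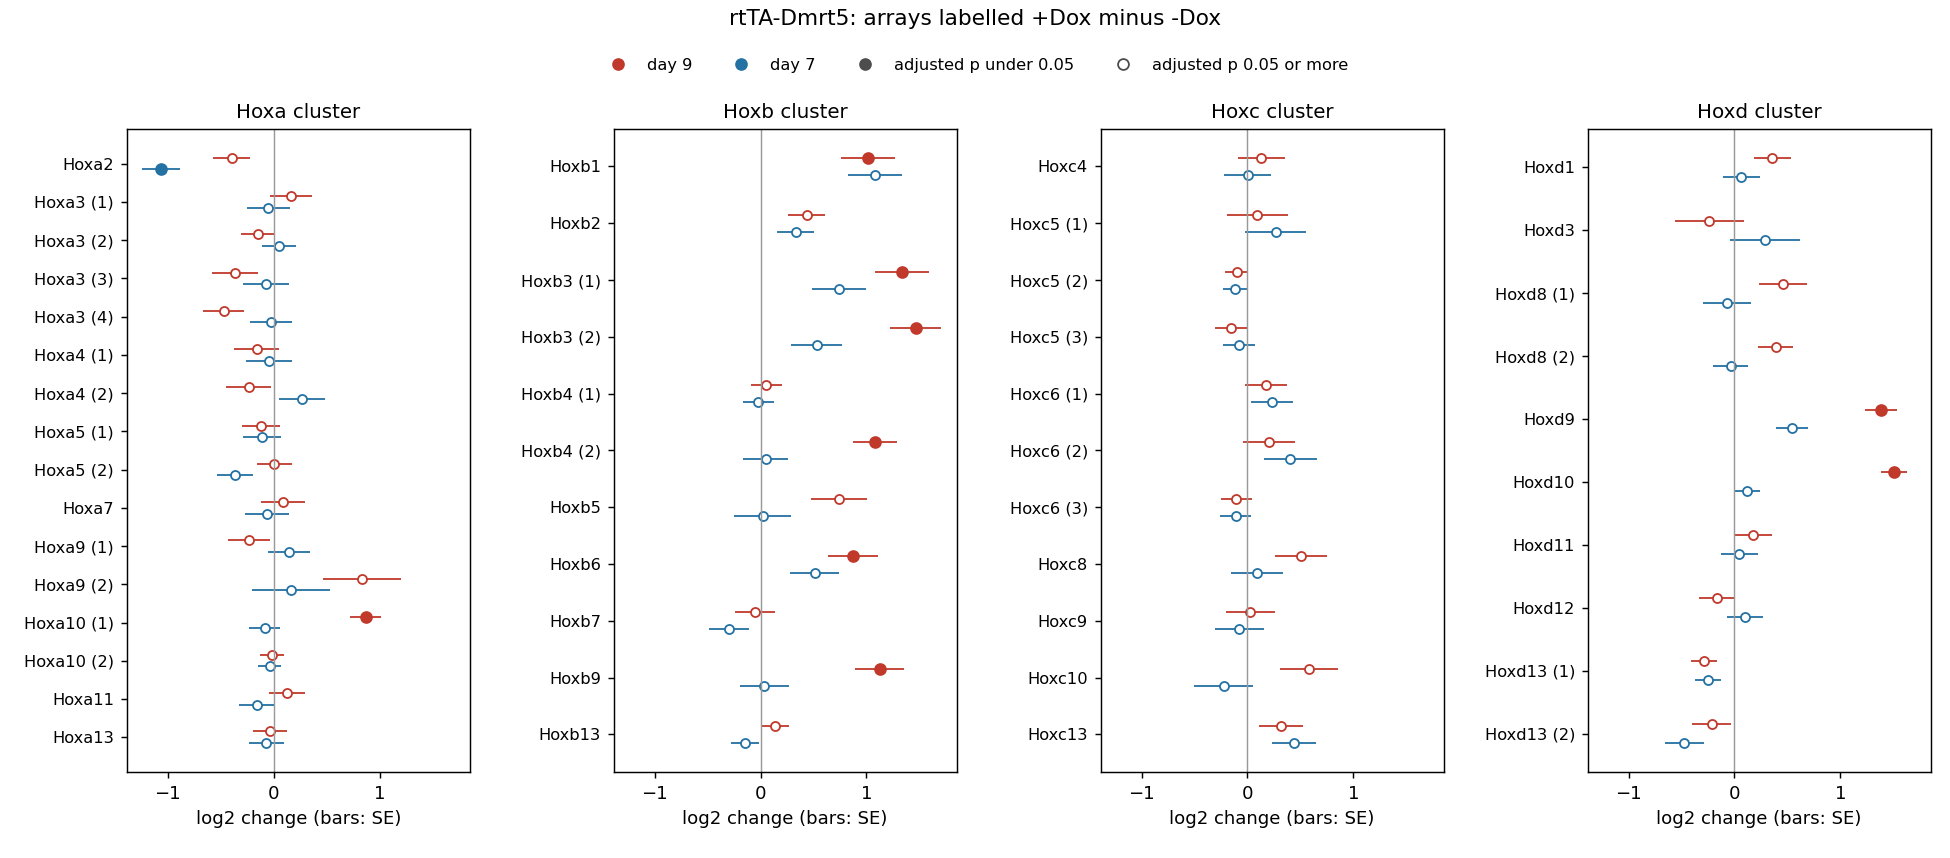
Difference between rtTA-Dmrt5 arrays labelled +Dox and -Dox at day 9 (red) and day 7 (blue) for the 48 Hox probe sets, on the log2 scale with the SE as bars. Filled points have an adjusted p under 0.05. The 9 filled red points all lie right of 0, 6 of them in the Hoxb panel, and the 1 filled blue point is Hoxa2 at -1.06.

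In the parental rtTA line at day 7, 0 of the 48 Hox probe sets were called between arrays labelled +Dox and -Dox, with 0% of all probe sets called. Without adjustment, limma gave a p under 0.05 to 4 Hox probe sets (8.33%) and to 5.16% of all probe sets. The 5 smallest p-values belonged to Hoxd8 1433638_s_at (-0.58), Hoxa4 1420226_x_at (-0.59), Hoxa9 1455626_at (-0.85), Hoxd9 (-0.35) and Hoxa10 1431475_a_at (-0.30). Probe sets ending in _s_at or _x_at may share probe sequences with other transcripts. Hoxb1 stood at 1.16 and 1.41 in rtTA arrays labelled +Dox, against 1.16 and 1.71 in those labelled -Dox, and Hoxa2 at 1.93 and 1.96 in those labelled +Dox, against 2.0015 and 2.16 in those labelled -Dox. The Hoxb1 values of the 2 labels overlapped, and those of Hoxa2 did not.

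The difference between the lines in the day 7 Dox response was called for 0 of the 48 probe sets, against 1.04% of all; limma's unadjusted p was under 0.05 for 7 (14.6%, against 12.1% of all). Hoxd9 differed by 0.89 ± 0.21 (adjusted p = 0.101), Hoxa2 by -0.92 ± 0.25 (adjusted p = 0.148), Hoxb1 by 1.23 ± 0.36 (adjusted p = 0.183), Hoxd13 1440626_at by -0.77 (adjusted p = 0.254) and Hoxa5 1448926_at by -0.71 (adjusted p = 0.258). In the full fit, the fall of Hoxa2 at day 7 was thus not shown to be particular to the line with the transgene. The Hoxa2 difference between lines was called with only the groups compared (adjusted p = 0.046). It was also called without either rtTA-Dmrt5 day 9 array labelled +Dox, so the call depended on the fit.

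Between the days, within rtTA-Dmrt5 cells, few Hox probe sets changed. These comparisons share their arrays with the Dox comparisons. In arrays labelled -Dox, 2 of 48 (4.17%) were lower at day 9 than at day 7 and 0 were higher, against 7.65% of all probe sets called and 3.37% lower. Hoxd9 stood at -1.37 and -1.28 at day 9, against -0.68 and -0.66 at day 7 (-0.66 ± 0.15; adjusted p = 0.0275), with no overlap. Hoxb4 1460379_at stood at -0.52 and -1.22 at day 9, against 0.089 and -0.21 at day 7 (-0.81 ± 0.21; adjusted p = 0.045). Hoxd9 was not called without any 1 of those 4 arrays (adjusted p from 0.0905 to 0.14), and Hoxb4 not in 11 of the 12 fits without 1 array, with -0.46 (adjusted p = 0.219) without replicate 2 of day 9. The other values with the smallest p were -0.68 (1456229_at) and -0.56 (1427605_at) for Hoxb3 and 0.53 for Hoxa4 1427354_at (adjusted p = 0.126, 0.242 and 0.187).

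In arrays labelled +Dox, 3 of 48 Hox probe sets (6.25%) were higher at day 9 than at day 7 and 0 were lower, against 9.1% of all called and 5.18% higher. Hoxd10 differed by 1.27 ± 0.12 (adjusted p = 0.000451). Hoxa2 stood at -0.012 and -0.64 at day 9, against -1.31 and -1.25 at day 7 (0.96 ± 0.18; adjusted p = 0.00925). Hoxa10 1431475_a_at stood at 0.61 and 0.86 at day 9, against -0.047 and 0.14 at day 7 (0.68 ± 0.15; adjusted p = 0.0178). The groups of all 3 were apart, but Hoxa2 was not called without either day 7 array (adjusted p = 0.0627 and 0.0577), and Hoxa10 not without either day 7 array or replicate 2 of day 9 (adjusted p from 0.0593 to 0.123). Hoxb9 (0.79; adjusted p = 0.0616) and Hoxd8 1433638_s_at (0.51; adjusted p = 0.0915) followed. With only the groups compared, Hoxa2 (adjusted p = 0.0797) and Hoxa10 (adjusted p = 0.0735) were not called. The spike-in means of these arrays were -0.79 and -0.66 at day 9, against -0.34 and -0.017 at day 7, and Actb 3' minus 5' was 0.23 and 0.20 at day 9, against 0.054 and -0.13 at day 7. Of 11 forebrain probe sets, 1 was higher and 5 were lower at day 9. The part of these was not tested.

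The largest of the Hox differences tested lay between the lines. Among arrays labelled -Dox at day 7, 11 of 48 Hox probe sets, of 11 genes, were lower in rtTA-Dmrt5 than in rtTA arrays and 0 were higher. That is 22.9%, against 18.7% of all probe sets called and 9.95% called lower. The median was -0.22 over the Hox probe sets and -0.0014 over all. The 11 came from every cluster: 3 of 16 Hoxa, 3 of 11 Hoxb, 2 of 11 Hoxc and 3 of 10 Hoxd probe sets. By paralogue number they were 5 of 16 (1 to 4), 3 of 15 (5 to 8) and 3 of 17 (9 to 13), with medians of -0.56, -0.18 and -0.04. By level they were 7 of the 15 with a median of 4 to 8 and 4 of the 31 with a median of 2 to 4. The count fell without replicate 2 of these rtTA-Dmrt5 arrays and without replicate 1 of these rtTA arrays, fits that leave 1 array in a group. The share of all probe sets called fell too.

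The hindbrain genes Hoxb1 and Hoxa2 differed most. Hoxb1 stood at -1.11 and -1.06 in rtTA-Dmrt5 arrays labelled -Dox, against 1.16 and 1.71 in rtTA arrays labelled -Dox (-2.52 ± 0.25; adjusted p = 0.000168). Hoxa2 stood at -0.29 and -0.15 in rtTA-Dmrt5 arrays, against 2.0015 and 2.16 in rtTA arrays (-2.30 ± 0.18; adjusted p = 3.24e-05). Neither gene's groups came near each other. Hoxa3, of the caudal hindbrain and the third pharyngeal arch, differed by -1.19 ± 0.20 for 1427433_s_at (adjusted p = 0.00308), while its other 3 probe sets were not called. Hoxd3 stood at -0.49 and -0.066 in rtTA-Dmrt5 arrays, against 0.72 and 0.90 in rtTA arrays (-1.09 ± 0.33; adjusted p = 0.0456), and was not called in 8 of the fits without 1 array.

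Of the probe sets of paralogues 5 to 13 most were not called, and Hoxc4 and Hoxc8 were the called members of the Hoxc cluster. Hoxc4, a gene of the neck region, stood at -0.084 and 0.078 in rtTA-Dmrt5 arrays labelled -Dox, against 2.12 and 1.35 in rtTA arrays (-1.74 ± 0.22; adjusted p = 0.000687). Hoxc8, which patterns the brachial and thoracic spinal cord, stood at -0.11 and -0.21 in rtTA-Dmrt5 arrays, against 1.69 and 1.46 in rtTA arrays (-1.73 ± 0.25; adjusted p = 0.00124). Hoxd9 stood at -0.68 and -0.66 in rtTA-Dmrt5 arrays, against 1.65 and 1.39 in rtTA arrays (-2.19 ± 0.15; adjusted p = 1.8e-05). Hoxb9 stood at -0.58 and -0.48 in rtTA-Dmrt5 arrays, against 1.08 and 0.47 in rtTA arrays (-1.30 ± 0.23; adjusted p = 0.00378). These groups did not overlap. The remaining calls were Hoxa9 1455626_at (-1.46; adjusted p = 0.0214), Hoxb6 (-0.80; adjusted p = 0.0405) and Hoxd8 1433638_s_at (-0.71; adjusted p = 0.0156). Of the 12 fits without 1 array, Hoxa9 lost the call in 3, Hoxb6 in 8 and Hoxd8 in 2. Each lost it without replicate 1 of the rtTA arrays labelled -Dox, where they were at -1, -0.42 and -0.58. Hoxb6 was also not called with only the groups compared (adjusted p = 0.124), nor Hoxd8 with one value per gene (adjusted p = 0.0993). The second probe set of Hoxa9 was not called, nor was that of Hoxd8. Group means of the latter, 1431099_at, were -0.001 in rtTA-Dmrt5 and 0.18 in rtTA arrays labelled -Dox. Hoxd10, by contrast with Hoxd9, stood at 0.11 and -0.020 in rtTA-Dmrt5 arrays, against 0.0093 and -0.18 in rtTA arrays, and these values overlapped.

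Among arrays labelled +Dox at day 7, 9 of 48 Hox probe sets, of 9 genes, were lower in rtTA-Dmrt5 than in rtTA arrays and 0 were higher: 18.8%, against 14.6% of all called and 6.81% lower. Hoxa2 differed most, with -1.31 and -1.25 in rtTA-Dmrt5 arrays labelled +Dox, against 1.93 and 1.96 in rtTA arrays labelled +Dox (-3.23 ± 0.18; adjusted p = 3.95e-06). Hoxb1 stood at 0.070 and -0.070 in rtTA-Dmrt5 arrays, against 1.16 and 1.41 in rtTA arrays (-1.29 ± 0.25; adjusted p = 0.00688). Hoxd9 differed by -1.30 ± 0.15 (adjusted p = 0.000308), Hoxc4 by -1.35 ± 0.22 (adjusted p = 0.00255) and Hoxc8 by -1.30 ± 0.25 (adjusted p = 0.00562). Hoxa2, Hoxb1, Hoxd9, Hoxc4, Hoxc8, Hoxa3 1427433_s_at (-1.001) and Hoxb9 (-0.89) were called under both labels. In the fits without 1 array, Hoxa2, Hoxd9 and Hoxc4 kept the call under the +Dox label, while Hoxc8 lost it in 1 (adjusted p = 0.0532), Hoxb1 in 2 (up to 0.0519), Hoxa3 in 2 (up to 0.0729) and Hoxb9 in 3 (up to 0.192). Hoxa3 also lost it with only the groups compared (adjusted p = 0.0529). Hoxd13 1440626_at (-0.81) and Hoxa5 1448926_at (-0.66) were called among arrays labelled +Dox only. The test of whether the line difference itself changed with Dox gave adjusted p = 0.254 and 0.258, and each lost the call in 3 fits without 1 array. Hoxa5 also lost it with one value per gene (adjusted p = 0.0574) and with only the groups compared (adjusted p = 0.0759). The other probe set of each gene was not called. Group means with the +Dox label were -0.12 in rtTA-Dmrt5 and -0.07 in rtTA arrays for Hoxd13 1422239_at. For Hoxa5 1443803_x_at they were -0.08 and -0.07. The count fell without replicate 2 of the rtTA-Dmrt5 arrays and without replicate 1 of the rtTA arrays, fits that leave 1 array in a group. The share of all probe sets called fell too, and the Hox share was then no longer clearly above it.

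**Figure D4:**
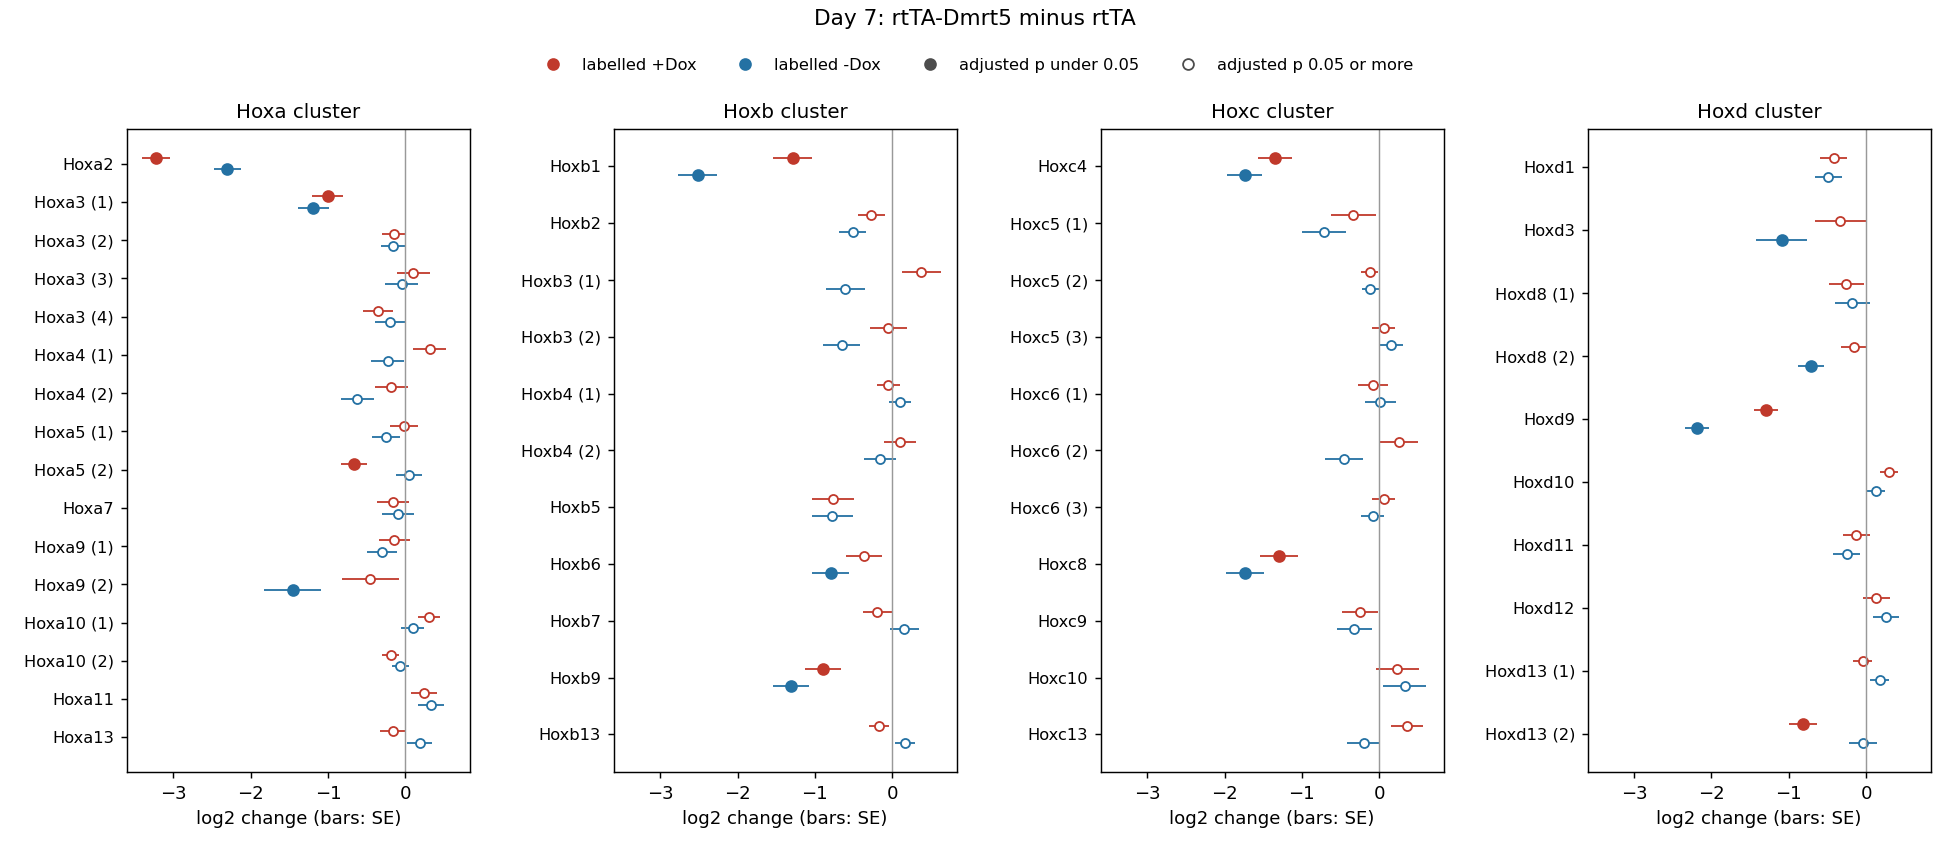
Difference between rtTA-Dmrt5 and rtTA arrays at day 7 for the 48 Hox probe sets, labelled +Dox (red) and -Dox (blue), on the log2 scale with the SE as bars. Filled points have an adjusted p under 0.05, and all of them lie left of 0, down to -3.23 for Hoxa2 in arrays labelled +Dox.

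Markers of other cell types differed between the lines too. Of all probe sets, 18.7% were called with the -Dox label and 14.6% with the +Dox label. Among arrays labelled -Dox, 0 of 8 mesoderm probe sets were higher and 4 lower in rtTA-Dmrt5 arrays, among them Mixl1 (-3.33), Tbx6 (-1.41) and Meox1 (-1.17), with list means per array of -0.20 and -0.32 in rtTA-Dmrt5 arrays, against 0.59 and 0.62 in rtTA arrays. Of 16 endoderm probe sets 7 were higher and 1 lower (means -0.10 and -0.14 in rtTA-Dmrt5 arrays, against -0.94 and -1.32 in rtTA arrays), and of 11 forebrain probe sets 6 were higher and 0 lower (means 0.76 and 0.81 in rtTA-Dmrt5 arrays, against -0.21 and -0.25 in rtTA arrays). Among arrays labelled +Dox, 13 endoderm probe sets were higher and 1 lower, and 2 mesoderm probe sets were lower. Of the 11 forebrain probe sets, 2 were higher and 1 lower there. The median forebrain difference was 0.02 with the +Dox label, against 0.84 with the -Dox label. For Actb, the 3' probe set minus the 5' one lay between -0.13 and 0.065 in the day 7 rtTA-Dmrt5 arrays, against -0.37 to -0.20 in the rtTA arrays. The part of these in the Hox differences was not tested.

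Genes that work with the Hox proteins were read from lists of pathway genes. The TALE class cofactors, whose Meis and Pbx proteins bind DNA together with Hox proteins, had 21 probe sets of 9 genes. At day 9, 1 rose with the +Dox label (Pknox2, 0.76) and 9 fell, among them Meis1 (-1.93 and -2.13), Meis2 (4 probe sets, -0.85 to -1.69) and Pbx3 (-1.07 and -0.65). At day 7, 1 rose and 7 fell. These calls were 47.6% of the list at day 9 and 38.1% at day 7, against 18.3% and 3.05% of all probe sets. In rtTA-Dmrt5 against rtTA arrays labelled -Dox, 0 of the 21 were higher and 8 lower, and among those labelled +Dox 1 was higher and 13 were lower. That is 38.1% and 66.7%, against 18.7% and 14.6% of all probe sets. The median difference over the list was -0.38 at day 9, against -0.02 over all probe sets.

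The genes of hindbrain segmentation gave 18 probe sets of 8 genes. With the +Dox label, 7 rose and 3 fell at day 9, and 4 rose and 3 fell at day 7. That is 55.6% called at day 9 and 38.9% at day 7, against 18.3% and 3.05% of all probe sets. Egr2, which marks hindbrain segments flanking that of Hoxb1 and activates Hoxa2 there, rose by 0.71 at day 9 (adjusted p = 0.00823) and by 0.87 at day 7 (adjusted p = 0.00982). Fgf3, a hindbrain signal, rose in 3 probe sets at day 9 (0.58, 1.64 and 3.05). Among those that fell at day 9 were Gbx2 (-1.04), which sets the anterior border of the hindbrain, and Irx3 (-1.40). Between the lines, among arrays labelled -Dox, 0 were higher and 7 lower in rtTA-Dmrt5 arrays, among them Gbx2 (-2.17) and Egr2 (-0.87). That is 38.9%, against 18.7% of all probe sets. Among arrays labelled +Dox, 3 were higher and 9 lower, which is 66.7%, against 14.6% of all.

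The retinoic acid pathway, an activator of Hox genes, gave 30 probe sets of 19 genes. At day 9, 4 rose with the +Dox label and 7 fell (36.7% called, against 18.3% of all). The synthesis enzyme Aldh1a2 (1.23), the retinol transporter Stra6 (1.85), the receptor Rarg (0.90) and the degrading enzyme Cyp26a1 (1.10) rose, while the degrading enzyme Cyp26b1 fell by 3.03 on the log2 scale. The other 6 probe sets that fell were of the binding protein Crabp1 (-1.15) and the nuclear receptors Nr2f1 (-0.98) and Nr2f2 (4 probe sets, -0.58 to -2.34). At day 7, 3 rose and 7 fell (33.3%, against 3.05% of all), with Aldh1a2 at 1.28 (adjusted p = 0.012) and Cyp26b1 at -2.15 (adjusted p = 0.00137). Between the lines, among arrays labelled -Dox, 2 were higher and 6 lower in rtTA-Dmrt5 arrays (26.7%, against 18.7% of all). Aldh1a2 differed by -3.10 (adjusted p = 1.97e-05), Rarg by -1.44 and Cyp26b1 by -2.13. The list's median was -0.03 at day 9.

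Polycomb and trithorax genes, which keep Hox chromatin closed or open, gave 54 probe sets of 21 genes. At day 9, 6 rose with the +Dox label and 3 fell, which is 16.7% of the list and below the 18.3% of all probe sets called; Pcgf2 (-0.90), Ring1 (-0.70) and Cbx2 (-0.55), parts of Polycomb repressive complexes, were those that fell. Among day 7 arrays labelled -Dox, 6 were higher and 13 lower in rtTA-Dmrt5 than in rtTA arrays (35.2%, against 18.7% of all); Ezh1 (1.63, 0.65 and 1.70) was higher, and Jarid2 (-1.15), the demethylase Kdm6a (-1.13 and -0.90) and Ctcf (-1.09) were lower.

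Of the 13 probe sets of ParaHox, Cdx and related homeobox genes, 0 rose and 1 fell with the +Dox label at day 9: Gsx1 (-2.64; adjusted p = 0.000746). That is 7.69%, below the 18.3% of all probe sets called. At day 7, 1 rose (Nkx1-2, 1.02) and 1 fell (Gsx1, -2.38), which is 15.4%, against 3.05% of all. Cdx2, which drives trunk Hox genes, differed by 0.02 and -0.17 in its 2 probe sets at day 9 (adjusted p = 0.961 and 0.679). In the comparison of days, 1 Cdx2 probe set was lower at day 9 by -1.87 in arrays labelled +Dox (adjusted p = 0.00177) and by -1.57 in those labelled -Dox (adjusted p = 0.00418). The other Cdx2 probe set was called lower under neither label. With the +Dox label 0 of the list were higher (7.69% called, against 9.1% of all probe sets). With the -Dox label 1 was higher (15.4% called, against 7.65% of all). Between the lines, among arrays labelled -Dox, Nkx1-2 (-3.92 and -0.59) and Evx1 (-1.53) were lower in rtTA-Dmrt5 arrays (23.1% of the list, against 18.7% of all).

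The genes that flank the Hox clusters gave 18 probe sets of 11 genes, of which 4 rose and 1 fell with the +Dox label at day 9 (27.8% called, against 18.3% of all). Skap1, beside the Hoxb cluster, rose in one probe set (1.66; adjusted p = 0.000175) and fell in the other (-0.58; adjusted p = 0.0413), so its direction was not settled. Hibadh, on the Hoxa side, rose by 0.51 and 0.60, and Mtx2, on the Hoxd side, by 0.71. Among day 7 arrays labelled -Dox, 0 were higher and 4 lower in rtTA-Dmrt5 than in rtTA arrays: 2 probe sets of Skap2 (-0.82 and -0.52), Evx1 (-1.53) and Mtx2 (-0.81). That is 22.2% of the list, near the 18.7% of all probe sets called.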

How the data were processed

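Total RNA of 12 samples was amplified, labelled with biotin and hybridised to Affymetrix arrays, per the labels' protocols. The deposited log2 values came from RMA, per the submitters' processing notes; no source used here gives its version. The centring of each probe set on its median over the 12 arrays (0 to within 5e-07) was read from the deposited values and is stated by no source, nor are the log base, taken as 2 because RMA is defined so, and the direction, taken as more signal for a larger value. Column medians lay between -0.01 and 0.01. Of 45037 probe sets, with 64 controls left out, 34945 had 1 gene symbol, 932 several and 9160 none in the platform annotation. The range of each probe set's median was recovered from the spacing of single-precision numbers, a method tested on simulated data.

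Means per group were fitted to all 12 arrays with limma 3.58.1 (R 4.3.3; lmFit, contrasts, eBayes), and p-values adjusted by Benjamini and Hochberg over all 45037 probe sets, with calls at 0.05; residual degrees of freedom were 6, with 3.92 from the prior. The fit was tested on simulated data. Errors are limma's SE, from a spread per probe set shared by all 6 groups and the prior, with 2 arrays a group. They do not show the spread within the groups compared, and the number of arrays limits the precision. Every called Hox probe set is named, with at most 12 in each direction, and where fewer than 5 passed, the 5 with the smallest p. Members, markers and lists were chosen with earlier results of these data known; Cyp26b1, Cyp26c1, Gbx2, Evx1 and Evx2 are each in more than 1 list. Replicate numbers showed no strong pairing of the arrays. The correlation of deviations of same-numbered arrays ran from -0.166 to 0.167 and passed 0.1 in 2 of 15 pairs of groups. It was 0.143 between the rtTA-Dmrt5 day 9 groups. With 1 replicate difference per group, these correlations cannot exclude pairing. Alternatives were replicate blocks, one value per gene, a level minimum, array weights, array centring, a robust prior, only the groups compared, and leaving out each array. Promoters are from RefSeq (GRCm38.p6). Probe sets naming several genes were left out, since their signal has no single gene. Scanner files were not analysed here.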

Additional observations from a re-analysis of the deposited data

Results flagged for a closer look

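The Dox response of Hoxd10, whose probe set has a median of 2 to 4, differed between the days by a direct test. It was 1.51 ± 0.12 at day 9 and 0.12 at day 7 in rtTA-Dmrt5 arrays labelled +Dox minus those labelled -Dox, a difference of 1.39 ± 0.17 on the log2 scale (SE; limma adjusted p = 0.0157). The sign of the difference was the same in all 12 fits that left out 1 array, but the call was lost in 7 of them (adjusted p up to 0.0831) and with the replicate block within line and day (adjusted p = 0.0708).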

How the results depend on the processing

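With 2 arrays a group, calls near the threshold depended on single arrays, most Hox probe sets have low medians, and levels cannot be compared between genes. None of the 59 named results changed direction under any alternative (0 reversed). Of the 36 that were called, 17 kept the call in every fit without 1 array and 19 lost it in at least 1. Without 1 array, the called Hox probe sets ranged from 7 to 12 for the Dox response at day 9 (9 in the full fit), from 0 to 2 at day 7 (1), from 0 to 1 for the difference between lines (0), from 0 to 3 for the difference between days (1), from 1 to 5 for day 9 against day 7 with Dox (3), from 0 to 2 without Dox (2), from 3 to 10 for rtTA-Dmrt5 against rtTA with Dox (9) and from 7 to 13 without Dox (11). In rtTA cells 0 were called in each. The Dox response at day 7 counted 2 with one value per gene, with a median level of at least 4 and with only the groups compared, and 3 with array weights. The added ones were Hoxb1 and, with weights, Hoxd9. Of all genes or probe sets tested, these alternatives called 6.94%, 6.81%, 1.72% and 5.92%, in that order. A median level of at least 4, which leaves 15 Hox probe sets to test, gave 5 at day 9, 7 for rtTA-Dmrt5 against rtTA without Dox and 0 for the difference between days, where one value per gene gave 2. Of all probe sets with such a median, 32.7%, 34.3% and 2.34% were called in these comparisons, so the Hox share at day 9 was near the background. With one value per gene, 2.42% of all genes were called for the difference between days. The full fit also gave 5, 7 and 0 for these 15 probe sets. The minimum took calls such as that of Hoxd10 out of the test, so these counts do not show that they failed. With only the groups compared, the counts were 1 for the difference between lines (Hoxa2), 1 for day 9 against day 7 with Dox and 1 without Dox. With the replicate block within line and day, the counts were 10 for the Dox response at day 9 (9 higher and 1 lower), 2 at day 7 and 0 for the difference between days (Hoxd10, adjusted p = 0.0708); with a replicate block of 1 number over all groups, day 9 against day 7 without Dox gave 1; the blocks moved no other count by more than 1.5 times. Array centring and the robust prior moved no count by more than 1.5 times. The cause of these changes was not tested beyond the smaller numbers of probe sets or arrays that some alternatives use.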

Other observations

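Antisense transcripts of the Hox clusters had 5 probe sets outside the naming rule. Hoxb5os, which runs opposite to Hoxb5, stood at 0.18 and -0.062 in the rtTA-Dmrt5 day 9 arrays labelled +Dox, against -1.98 and -1.72 in those labelled -Dox (1.91 ± 0.28, SE; limma adjusted p = 0.00185). At day 7 it stood at 1.05 and 0.44 in arrays labelled +Dox, against -0.23 and 0.062 in those labelled -Dox (0.83; adjusted p = 0.184). In rtTA cells it stood at -0.18 and -0.41 in arrays labelled +Dox, against 1.30 and 0.42 in those labelled -Dox (-1.15; adjusted p = 0.856), and the difference between lines in the Dox response was 1.99 ± 0.40 (adjusted p = 0.0543). Compared with rtTA arrays, Hoxb5os was higher in rtTA-Dmrt5 arrays among those labelled +Dox (1.04; adjusted p = 0.034) and lower among those labelled -Dox (-0.94; adjusted p = 0.0436). In arrays labelled -Dox it was lower at day 9 than at day 7 (-1.77; adjusted p = 0.00498). The 2 probe sets each of Hoxa11os and Hoxd3os1 were not called in any of the 9 comparisons.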
